A study of Homo sapiens with 160 samples.

Results

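Interferon-stimulated genes encode the antiviral proteins, sensors and transcription factors that a cell makes at a low level without infection and raises when interferon is present. A list of 39 such symbols was followed through RNA-seq of BEAS-2B, an immortalised human bronchial epithelial cell line that serves here as the only cell model. A symbol was kept where the deposited value, which the authors call TPM (a transcript level scaled by transcript length), was at least 1 in at least 5 libraries. The list held DDX58 and RIGI, the older and the newer symbol of the RNA sensor gene RIG-I, which the table carries under the older one. OASL was in the table but reached 1 in 3 of 150 libraries and was left out. The other 37 genes passed, of 14827 that passed among 29273 in the table. IFI44L lay just inside the filter, with a value of at least 1 in 17 libraries, 8 of them with mometasone at 18 h and 9 elsewhere. RSAD2 followed with 32 libraries and OAS2 with 36.

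Confluent wild-type cells without serum overnight received vehicle, mometasone at 100 nM, indacaterol at 100 nM, carbachol at 10 µM, each pair of these, or the triple combination. Mometasone is a glucocorticoid, indacaterol a long-acting β2-adrenoceptor agonist that raises cyclic AMP, and carbachol a muscarinic receptor agonist. RNA was taken at 1, 2, 6 and 18 h, which gave 32 groups with replicates numbered 1 to 5. Of the groups, 24 had 5 libraries, 6 had 4 and 2 had 3. No interferon, virus or other inducer was added in any group. The labels do not say whether replicates were separate cultures, so p-values measure the spread between these libraries, which may be technical.

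Interferons bind receptors whose JAK family kinases phosphorylate transcription factors. Type I and type III interferons thereby form a complex that contains STAT2 and IRF9 and binds the interferon-stimulated response element (ISRE), whereas interferon gamma acts at the gamma-activated site (GAS). Airway epithelium relies on these genes as an early barrier to respiratory viruses, and unstimulated cells keep a basal level of them.

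Short promoter stretches show the elements that such factors read in 7 of the listed genes that were called under an agent. PLSCR1 and ISG20, the genes with the strongest calls, have their ISRE core inside an annotated exon and are named only. The printed stretches are RefSeq sequences on GRCh38.p14, written 5′ to 3′ on the gene's strand. Capitals mark the letters of each ISRE core match, or of the GAS for IRF1. The GAS that overlaps the ISRE core in the EPSTI1 stretch is not marked. The ISRE core searched was GAAANNGAA and the GAS was TTCNNNGAA, both on either strand, so that an ISRE on the other strand appears as its reverse complement. The ISG15 stretch holds 3 overlapping ISRE cores, and the IFIT1 and IFIT3 stretches hold 2 each.
ISG15: tcggGAAAGGGAAACCGAAACTGAAgcca
IFIT1: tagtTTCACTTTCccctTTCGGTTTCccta
IFIT3: tcacagaTTCTGTTTCAGTTTCccctcaa
OAS3: agaaagaaacGAAACTGAAagcagggaat
SAMD9: tctgagaaatGAAACTGAAaccaaaccta
EPSTI1: ctgattctgaGAAACCGAAactcagctgt
IRF1: acagcctgatTTCCCCGAAatgacggcac

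The ISG15 stretch lies at chr1:1013380-1013408 on the plus strand, 117 to 89 bases before the RefSeq start, inside the span of longer annotated ISG15 transcripts. The IFIT1 stretch lies at chr10:89392504-89392533 on the plus strand and the IFIT3 stretch at chr10:89332423-89332451 on the plus strand, both within the span of LIPA on the opposite strand. The OAS3 stretch lies at chr12:112938321-112938349 on the plus strand, the SAMD9 stretch at chr7:93118097-93118125 on the minus strand and the EPSTI1 stretch at chr13:42992273-42992301 on the minus strand. IRF1 has no ISRE core in its window and is shown with its GAS at chr5:132490879-132490907 on the minus strand. None of the 7 stretches overlaps an annotated exon.

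In windows from 250 bases before to 50 bases after each RefSeq start, 22 of the 31 listed genes that had a window held an ISRE core. By window this was 66.7% of 42, beside 8.11% of all 35116 windows. The GAS was found in 28.6% of the listed genes' windows and in 7.66% of all. A glucocorticoid response element core, ACANNNTGT, was found in 4.76% beside 5.37%, and the cyclic AMP response element, TGACGTCA, in 0% beside 1.85%. GAS and ISRE matches can overlap, as they do in EPSTI1. A match is a description of letters and not of a bound site.

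The sums of the deposited values ran from 847289 to 1498421 per library, with 12521 to 13239 genes at 1 or more, and read depth is unknown. The mitochondrial share of the values ran from 5.88% to 28.3% and was above 20% in 6 libraries, all of replicate 1. At 1 h these were carbachol alone, indacaterol alone and the triple combination. At 2 h they were indacaterol alone (27.7%) and with carbachol (28.3%), and at 6 h indacaterol with mometasone. All but the library with carbachol alone thus had received indacaterol. Epithelial markers were mixed. KRT8 and KRT18, keratins of simple epithelium, had vehicle means of 342.5 and 444 and KRT7 of 11.1. Of the keratins of basal cells, KRT17 was at 589 and KRT5 and KRT14 at 0.295 and 0.275. The adhesion genes CDH1 and EPCAM were at 3.75 and 0.324. Mesenchymal markers were mixed too. VIM stood at 1612, COL1A1 at 683, PDGFRB at 103 and CDH2 at 41.0, whereas COL1A2 and DCN were at 1.71 each. Among leukocyte markers CD68 was at 17.1, CD14 at 1.04, PTPRC at 0.75 and CD3E of T cells at 0. Of plasmacytoid dendritic cells, the specialised interferon producers, IL3RA was at 1.57 and CLEC4C at 0.122. The glucocorticoid targets TSC22D3, FKBP5 and PER1 rose with mometasone at all 4 times, which checks the labels of that agent. In bulk RNA, fewer cells with a transcript and less transcript per cell cannot be told apart.

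Replicate 5 stood apart in 2 opposite groups of the listed genes. ISG15, BST2, IFI6, IFI35 and IRF7 lay above their group mean in all 29 replicate 5 libraries, by 1.91-fold, 1.85-fold, 1.78-fold, 1.57-fold and 1.46-fold over the other replicates on the log2(value + 1) scale. OAS3, DTX3L, SAMD9 and IFIT5 lay below it in all 29, by 1.44-fold, 1.4-fold, 1.4-fold and 1.28-fold. The median absolute shift of replicate 5 was 0.247 log2 for the 37 genes and 0.273 for all genes that passed. Replicate 5 is missing from mometasone alone at 1 and 18 h and from the triple combination at 1 h. At 18 h replicate 1 is present only for indacaterol alone and carbachol alone, and replicate 4 is missing from the triple combination. The 18 h libraries without mometasone thus include replicate 1, and those with it do not. Values without replicate 5 are given where they change a result.

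Without treatment most of the listed genes were expressed at a low level. The order of genes below rests on the authors' name for the values, TPM, a unit per transcript length, since the sources used here do not state how it was computed. Over the 19 vehicle libraries of all 4 times, 26 of the 37 genes had a mean below 10 and 8 were at 20 or more. Their median was 5.71, beside 14 for all genes that passed. IFI6, a mitochondrial and endoplasmic reticulum protein, was highest at 92.2 ± 36 (SD, n = 19). STAT2 followed at 65.7 ± 12.8, IFI35 at 54.3 ± 17.7 and ISG15, the ubiquitin-like modifier, at 49.5 ± 20. These genes were read in the same 19 libraries, and their order was not tested. In replicate 5 the vehicle mean was 154.8 for IFI6 and 53.9 for STAT2. In replicates 3 and 4 STAT2 was the higher, at 80.0 and 71.0 beside 68.6 and 69.5 for IFI6. BST2 and PLSCR1, both membrane proteins, were at 33.1 ± 13.9 and 33.1 ± 6.58.

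IRF1 and IRF9 were at 28.6 ± 6.34 and 27.9 ± 7.5, so the genes above 20 were 3 transcription factor genes and 5 others. Inducible antiviral genes were spread over the range, with IFI6, ISG15 and BST2 among the highest, OAS3 at 17.4 ± 3.65 and others far lower. MX1, a GTPase that traps viral nucleocapsids, was at 6.81 ± 1.52 and IFIT1, which binds viral RNA lacking cap methylation, at 2.167 ± 0.538. The lowest 4 were XAF1 at 0.916 ± 0.385, OAS2 at 0.695 ± 0.527, RSAD2 at 0.620 ± 0.305 and IFI44L at 0.332 ± 0.272. OASL, outside the filter, was at 0.321 ± 0.216 and lay within the spread of IFI44L. In vehicle cells none of the 37 genes passed the test at 2, 6 or 18 h against 1 h, where 0.0135%, 0.324% and 0.121% of all genes did. At an unadjusted p under 0.05 there were 0, 2 and 5. IRF1, at an unadjusted p of 0.00235, was 0.50 ± 0.16 (SE) lower at 18 h than at 1 h on the log2 scale (adjusted p = 0.277).

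**Figure D1:**
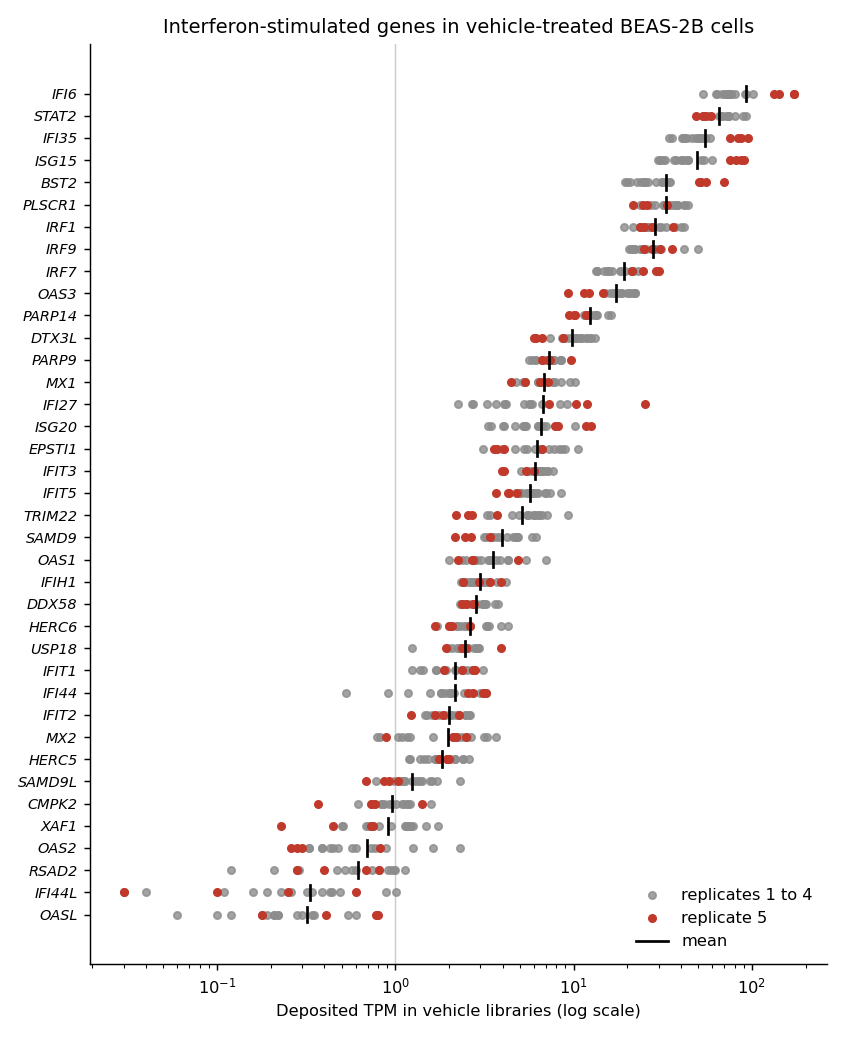
Deposited value (TPM, log axis) of the 37 genes and OASL in the 19 vehicle libraries, 1 point per library, ordered by mean, with replicate 5 in red. IFI6 is highest at a mean of 92.2 and OASL lowest at 0.321, and the replicate 5 points lie at the upper end for ISG15, BST2, IFI6 and IFI35 and at the lower end for OAS3 and TRIM22.

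Mometasone changed the listed genes in both directions. The effect was taken as the mean difference with and without mometasone over the 4 backgrounds without and with the other agents. A gene was called at an adjusted p below 0.05 over all 14827 genes. Unless the replicate block is named, the fit had no term for the replicate number. At 1 h 1 gene was higher and none lower, 2.7% of the 37 beside 2.64% of all genes (1.8% higher and 0.836% lower). At 2 h 4 were higher and 3 lower, 18.9% beside 8.58% (4.98% and 3.59%). At 6 h 5 were higher and 16 lower, 56.8% beside 33% (18.4% and 14.6%). With each library scaled to the same sum the 6 h split was 3 higher and 17 lower, and of all calls 43% were higher in place of 55.8%. At 18 h 7 were higher and 8 lower, 40.5% beside 31.5% (17.6% and 13.8%). The median of the 37 log2 changes was −0.07, 0.00, −0.14 and −0.05 at 1, 2, 6 and 18 h, beside 0.01, 0.00, 0.02 and 0.05 for all genes.

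Taken by background, each against its own control, mometasone called 5 of the 37 genes at 6 h in otherwise untreated cells, 9 beside indacaterol, 5 beside carbachol and 8 beside both, where 9.61%, 11.5%, 10.1% and 9.27% of all genes were called. At 2 h it called 2, 2, 2 and 1, beside 1.99%, 4.16%, 2.2% and 3.91% of all genes. Over the 4 times, 8 of the 37 genes were called higher only, 15 lower only, 2 in both directions and 12 at no time. IFIT1 and SAMD9 were the genes called in both. The share of all genes called at any of the 4 times was not counted, so these counts cannot be read as particular to the 37 genes. With the replicate number as a block within each time, the calls were 4 at 1 h and 11 at 2 h, 10.8% and 29.7% of the 37, where the same fit called 5.54% and 21.5% of all genes. With each library scaled to the same sum, the calls at 2 h were 4 higher and 1 lower, and at 18 h 13 genes were called. Without replicate 2 the calls at 18 h numbered 9, and without replicate 2 or 4 none of the 37 genes was called at 1 h. Calls over all genes also fell without replicate 2 at 1 h, to 240 of 14716 from 391 of 14827. For the 18 h fit without replicate 2 the share of all genes is not given here, so the fall to 9 cannot be read as particular to the 37 genes. Other markers moved with mometasone as well. The summed level of 9 epithelial markers ran from 358 to 707 with mometasone at 18 h and from 988 to 1652 without, and 2 of the 8 tested were called higher and 4 lower. The summed level of 6 leukocyte markers at 18 h ran from 12.8 to 24.3 with mometasone and from 11.5 to 25.6 without, and PTPRC of the 3 tested rose by 0.34 (adjusted p = 0.00212) from a vehicle mean of 0.75. The summed level of 6 mesenchymal markers at 18 h ran from 1681 to 2308 with mometasone and from 2115 to 2676 without. Of the 6, 1 was called higher and 3 lower, 66.7% beside 31.5% of all genes. The part of these markers in the changes below was not tested.

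**Figure D2:**
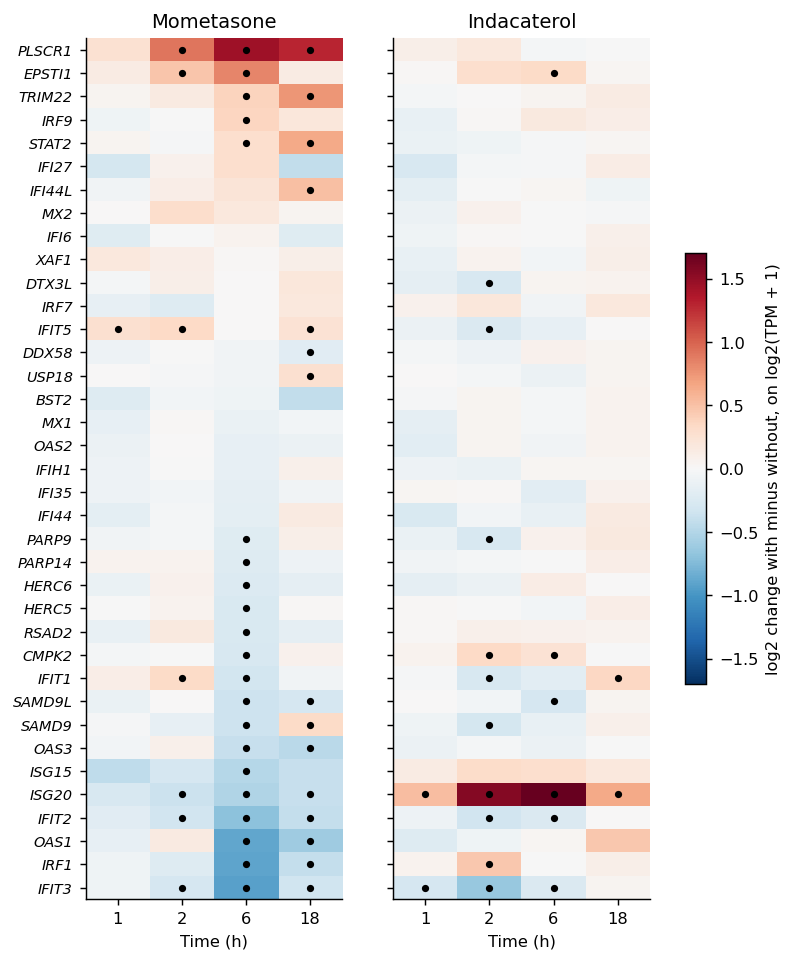
Log2 change of each of the 37 genes (vertical axis, ordered by the mometasone change at 6 h) with mometasone (left) and with indacaterol (right) at 1, 2, 6 and 18 h, as a colour from lower (blue) to higher (red), with a dot where the adjusted p is below 0.05. PLSCR1 is highest under mometasone and IFIT3 and IRF1 are lowest at 6 h, and ISG20 is the gene with the highest indacaterol change at each time.

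PLSCR1, a phospholipid scramblase that also restricts virus entry, rose most under mometasone. At 6 h the 5 vehicle libraries were at 35.1, 33.8, 41.8, 32.2 and 33.3, and the 5 with mometasone alone at 102, 77.7, 104, 107 and 75.3. Over all backgrounds the 20 libraries with mometasone ran from 68.4 to 115 with a median of 103, and the 20 without from 29.2 to 41.8 with a median of 34.5. The ranges did not overlap, and PLSCR1 was higher in 20 of 20 pairs of libraries that share a replicate number and the other agents. Its log2 change was 0.91 ± 0.083 at 2 h (adjusted p = 7.51e-18), 1.44 ± 0.083 at 6 h (1.12e-32), or 2.71-fold, and 1.29 ± 0.094 at 18 h (1.57e-24). It was called in each of the 4 backgrounds at 2 h and at 6 h. At 1 h the change was 0.26 and was called only with the replicate block (0.23, adjusted p = 0.0121).

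EPSTI1, an interferon-induced protein named for epithelial and stromal interaction, and TRIM22, a ubiquitin ligase that restricts viruses, also rose. EPSTI1 at 6 h ran from 7.75 to 22.1 with mometasone (median 15.0) and from 4.36 to 12.9 without (median 7.78), overlapping in part and higher in 19 of 20 pairs. Its log2 change was 0.47 ± 0.11 at 2 h (adjusted p = 0.00147) and 0.83 ± 0.11 at 6 h (6.51e-10). At 2 h the EPSTI1 change without replicate 1 was 0.39 (adjusted p = 0.0602). TRIM22 rose by 0.38 ± 0.12 at 6 h (adjusted p = 0.00784) and by 0.76 ± 0.14 at 18 h (1.91e-06), when it ran from 7.39 to 16.5 with mometasone and from 2.56 to 10.6 without. With each library scaled to the same sum the TRIM22 change at 6 h was 0.33 (adjusted p = 0.0815).

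IFI44L, a member of the interferon-induced 44 family with little expression at rest, was 0.51 ± 0.11 higher on the log2 scale at 18 h (adjusted p = 3.15e-05). It ran from 0.36 to 1.74 with mometasone (median 1.02) and from 0.03 to 1.25 without (median 0.35). It was higher in 13 of 14 pairs. Since 8 of the 17 libraries that took it past the filter are these mometasone libraries, and the pseudocount of 1 exceeds most of its values, its fold is understated on this scale.

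The transcription factor genes split. STAT2 and IRF9, partners in the complex that binds the ISRE, were higher with mometasone, and IRF1, a factor that activates interferon-stimulated genes without that complex, was lower. At 6 h IRF1 was at 28.0, 25.9, 24.6, 19.2 and 27.5 in vehicle and at 13.2, 9.42, 14.9, 11.97 and 12.7 with mometasone alone. Over all backgrounds it ran from 9.42 to 15.9 with mometasone (median 13.2) and from 19.03 to 28.7 without (median 25.6), so the ranges did not overlap and IRF1 was lower in 20 of 20 pairs. Its log2 change was −0.89 ± 0.076 at 6 h (adjusted p = 5.61e-20) and −0.40 ± 0.087 at 18 h (6.95e-05). At 18 h it was lower in 14 of 14 pairs, although the ranges overlapped slightly, at 17.4 to 21.7 with and 21.6 to 29.04 without mometasone.

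STAT2 rose by 0.29 ± 0.074 at 6 h (adjusted p = 0.000847) and by 0.64 ± 0.084 at 18 h (1.19e-10). At 18 h it ran from 98.5 to 176 with mometasone (median 131) and from 59.4 to 109 without (median 87.2), higher in 14 of 14 pairs. The 6 h change of STAT2 was 0.23 (adjusted p = 0.0726) with each library scaled to the same sum. IRF9 rose by 0.36 ± 0.083 at 6 h (adjusted p = 0.000208), from a median of 29.96 without mometasone to 36.7 with it, and in 19 of 20 pairs. IRF7, the factor that amplifies type I interferon production, had changes between −0.22 and 0.18 and passed at no time without the replicate block, and with it at 18 h (0.23, adjusted p = 0.043).

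**Figure D3:**
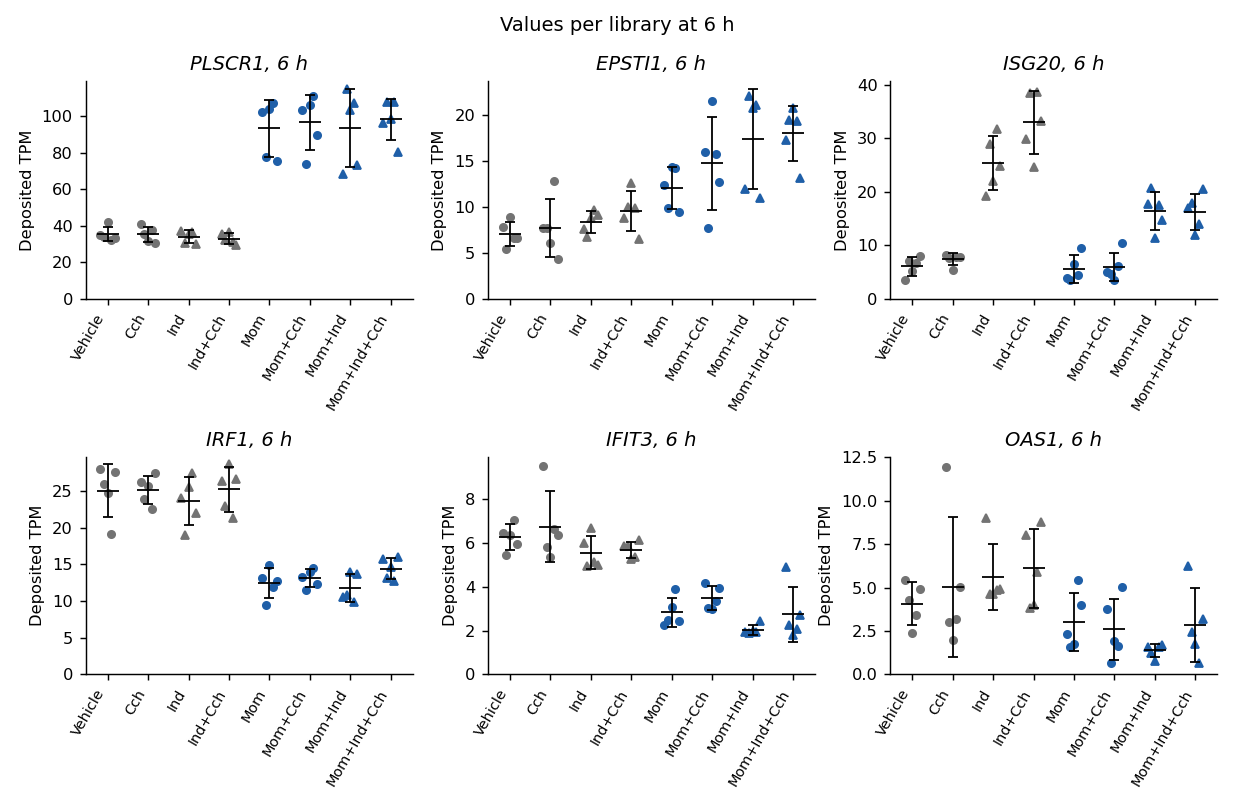
Deposited value (TPM) of PLSCR1, EPSTI1, ISG20, IRF1, IFIT3 and OAS1 at 6 h in each library of the 8 treatments, with the mean and SD of each group. Circles are without and triangles with indacaterol, and blue marks mometasone. PLSCR1 lies between 68.4 and 115 in all mometasone libraries and between 29.2 and 41.8 in the others, and ISG20 is above 11 in all indacaterol libraries.

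The IFIT genes, a cluster on chromosome 10 whose proteins bind viral RNA, did not move together. IFIT3 at 6 h was at 6.47, 5.48, 6.37, 7.07 and 5.98 in vehicle and at 2.28, 2.47, 3.07, 3.91 and 2.44 with mometasone alone. Over all backgrounds it ran from 1.82 to 4.93 with mometasone and from 4.96 to 9.55 without, ranges that lay next to each other without overlap, and it was lower in 20 of 20 pairs. Its log2 change was −0.28 ± 0.074 at 2 h (adjusted p = 0.00432), −0.92 ± 0.074 at 6 h (1.1e-21) and −0.34 ± 0.085 at 18 h (0.000589). Without replicate 4 the 2 h change was −0.23 (adjusted p = 0.102).

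IFIT2, which associates with IFIT3, ran at 6 h from 0.46 to 1.37 with mometasone and from 1.65 to 4.38 without, again without overlap. IFIT2 had a log2 change of −0.33 ± 0.066 at 2 h (adjusted p = 5.48e-05), −0.70 ± 0.066 at 6 h (1.27e-17) and −0.41 ± 0.075 at 18 h (2.46e-06), and at these low values the scale understates it. IFIT1 was higher by 0.33 ± 0.080 at 2 h (adjusted p = 0.00125), in 18 of 20 pairs, and lower by 0.31 at 6 h (0.00105), in 16 of 20 pairs. IFIT5 was higher at 1, 2 and 18 h, by 0.27, 0.33 and 0.25 (adjusted p = 0.024, 0.000339 and 0.0151). At 2 h it ran from 5.67 to 9.43 with mometasone and from 3.26 to 8.51 without. The IFIT5 calls at 1 and 18 h were lost without replicate 2 (adjusted p = 0.369 and 0.103), without replicate 3 (0.1 and 0.0627) and, at 1 h, without replicate 4 (0.17).

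The oligoadenylate synthases make the second messenger that activates RNase L. Of the 3 that passed the filter, OAS1 and OAS3 fell and OAS2 did not pass. OAS1 at 6 h ran from 0.65 to 6.26 with mometasone (median 1.75) and from 1.99 to 11.96 without (median 4.73), overlapping, and lower in 18 of 20 pairs. OAS1 changed by −0.88 ± 0.15 on the log2 scale at 6 h (adjusted p = 4.43e-07) and −0.61 ± 0.17 at 18 h (0.00277). By background the 6 h change was −0.39 for mometasone alone (adjusted p = 0.554) and −1.45 with indacaterol present (9.71e-05). The interaction, which averages the difference with and without indacaterol over both carbachol states, was −0.68 (adjusted p = 0.761). OAS3 fell by 0.39 ± 0.10 at 6 h (adjusted p = 0.00131) and by 0.46 ± 0.12 at 18 h (0.000911), in 18 of 20 and 14 of 14 pairs. Without replicate 2 the 18 h changes were −0.54 for OAS1 (adjusted p = 0.0529) and −0.39 for OAS3 (0.0556).

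Of ISG15 and the genes grouped with it here, ISG15 and the HERC family genes HERC5 and HERC6 were lower at 6 h. USP18, the protease that removes ISG15 and dampens the interferon receptor, was higher at 18 h. ISG15 at 6 h ran from 23.9 to 98.2 with mometasone (median 35.4) and from 30.6 to 119 without (median 57.2). The ranges overlap widely, with replicate 5 highest in vehicle and in mometasone alone, but ISG15 was lower in 18 of 20 pairs, with a log2 change of −0.49 ± 0.18 (adjusted p = 0.0296). Without replicate 2, 3 or 4 the adjusted p was 0.116, 0.0553 or 0.0965. With the replicate block ISG15 was also called lower at 1, 2 and 18 h (−0.30, −0.29 and −0.28, adjusted p = 0.0407, 0.0125 and 0.0223). HERC5 fell by 0.25 (adjusted p = 0.000349) and HERC6 by 0.23 (0.0414), the latter with an adjusted p of 0.171, 0.0555, 0.0599 and 0.124 without replicate 1, 3, 4 and 5. USP18 rose by 0.27 (adjusted p = 0.00262), in 11 of 14 pairs.

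ISG20, an RNA exonuclease, was lower with mometasone at 2, 6 and 18 h, by 0.36, 0.52 and 0.40 on the log2 scale (adjusted p = 0.0451, 0.000307 and 0.02). The 2 h call was lost on leaving out any single replicate (adjusted p from 0.0667 without replicate 3 to 0.192 without replicate 1). The 18 h change was −0.25 (adjusted p = 0.298) without replicate 2 and −0.44 (0.0527) without replicate 4. The other effectors called lower at 6 h changed by less. SAMD9L and SAMD9, paralogous restriction factors of poxviruses, fell by 0.35 each (adjusted p = 0.000742 and 0.00538). At 18 h SAMD9 was higher by 0.32 (adjusted p = 0.0289), in 14 of 14 pairs, and SAMD9L lower by 0.28 (0.0204). SAMD9 missed the threshold without replicate 2 at 6 h (adjusted p = 0.0639) and at 18 h without replicate 1, 2 or 4 (0.0673, 0.153 and 0.101), and SAMD9L at 18 h without replicate 4 or 5 (0.0916 and 0.111).

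CMPK2, a mitochondrial nucleotide kinase, and RSAD2, which makes a chain-terminating nucleotide, were lower at 6 h by 0.27 and 0.26 (adjusted p = 0.00273 and 0.0261). These neighbours on chromosome 2 overlap by 830 bases on opposite strands, and the sources do not say whether reads were counted by strand, so their values are uncertain in part. RSAD2 missed the threshold without replicate 1, 2 or 4 (adjusted p = 0.18, 0.09 and 0.116). PARP14 and PARP9, ADP-ribosyltransferases, fell by 0.23 and 0.20 at 6 h (adjusted p = 0.000736 and 0.00452). DTX3L, the ubiquitin ligase that pairs with PARP9 and overlaps it by 340 bases on the other strand, had a change of 0.01 at 6 h. DDX58 was lower by 0.19 at 18 h (adjusted p = 0.00818), with an adjusted p of 0.0634, 0.0524 and 0.0608 without replicate 2, 3 and 4.

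The 12 genes called at no time under mometasone without the replicate block were MX1, MX2, IFI6, IFI27, IFI35, IFI44, IFIH1, IRF7, BST2, XAF1, OAS2 and DTX3L. MX1 changed by −0.14 to 0.02 log2 and IFI6 by −0.20 to 0.06. BST2, a tether of budding virus, was at −0.42 at 18 h (adjusted p = 0.0799), and with the replicate block at −0.35 (4.99e-06). The block also called MX2 at 2 h (0.30, adjusted p = 0.0457), IFI35 at 6 h (−0.15, 0.0079), and IRF7 and DTX3L at 18 h (0.23 and 0.14, 0.043 and 0.0203). The ISRE core did not follow the direction of change in a steady way. Of the genes with a window, it was held at 2 h by 4 of 4 called higher and 2 of 2 called lower, at 6 h by 2 of 4 and 11 of 15, and at 18 h by 4 of 5 and 3 of 7, beside 22 of all 31.

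**Figure D4:**
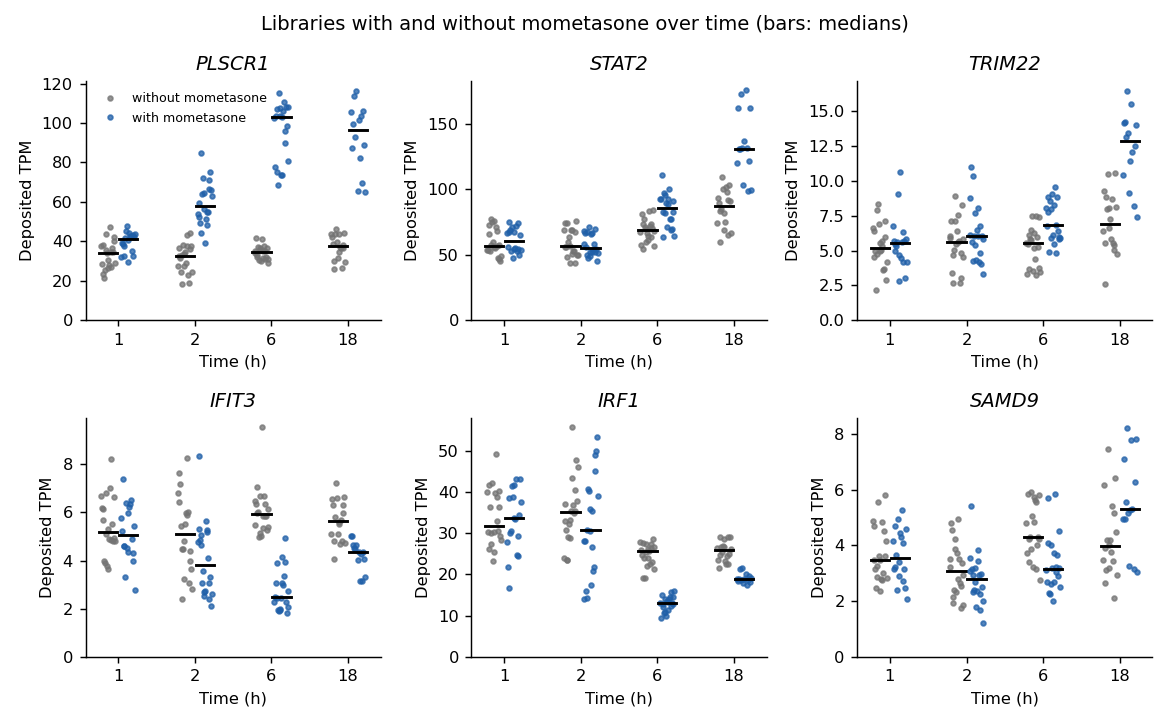
Deposited value (TPM) of PLSCR1, STAT2, TRIM22, IFIT3, IRF1 and SAMD9 at 1, 2, 6 and 18 h, 1 point per library, with (blue) and without mometasone over all backgrounds, with bars at the medians. PLSCR1 separates from 6 h on, IFIT3 and IRF1 separate at 6 h, and STAT2 and TRIM22 are highest with mometasone at 18 h.

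Indacaterol also changed the listed genes in both directions, with its highest count of calls at 2 h. At 1 h 1 was higher and 1 lower, 5.41% of the 37 beside 4.51% of all genes (3.28% higher and 1.23% lower). At 2 h 3 were higher and 7 lower, 27% beside 13.5% (8.13% and 5.41%). At 6 h 3 were higher and 3 lower, 16.2% beside 13.1% (6.85% and 6.27%), and at 18 h 2 were higher and none lower, 5.41% beside 1.6% (0.789% and 0.809%). Without the 6 libraries of over 20% mitochondrial values, the 2 h calls were 5 higher and 4 lower. With each library scaled to the same sum they were 3 and 5, and of all genes 5.28% were then higher and 10.1% lower. Under this scaling the share of all calls that were higher was 48%, 34.4% and 65.5% at 1, 2 and 18 h, in place of 72.8%, 60.1% and 49.4%. By background at 2 h, indacaterol called 2 of the 37 in otherwise untreated cells, 3 beside mometasone, 2 beside carbachol and 4 beside both, where 3.91%, 4.73%, 4.14% and 4.42% of all genes were called. Over the 4 times 4 genes were called higher only, 7 lower only, 1 (IFIT1) in both directions and 25 at no time. For indacaterol too, the share of all genes called at any time was not counted, so these counts cannot be read as particular to the 37. With the replicate block 4 genes were called at 1 h and 12 at 6 h, 10.8% and 32.4% of the 37, where it called 10.8% and 29.7% of all genes. At 2 and 18 h the block called 13 and 3, 35.1% and 8.11% of the 37, beside 27.1% and 8.91% of all genes. With each library scaled to the same sum 1 was higher and 2 lower at 6 h. Leaving out replicate 2, or replicate 4, left 0, 6 and 1 calls at 1, 2 and 18 h, and leaving out replicate 4 left 2 at 6 h. Calls over all genes fell as well. Without replicate 2 they were 2.7%, 9.93% and 0.7% of all genes at 1, 2 and 18 h. Without replicate 4 they were 2.72%, 10.1%, 9.01% and 0.935% at 1, 2, 6 and 18 h. The summed level of 9 epithelial markers at 2 h ran from 1321 to 5968 with indacaterol and from 940 to 1991 without. Of the 8 tested, 3 were called higher and 0 lower, 37.5% beside 13.5% of all genes. The part of these markers in the indacaterol changes was not tested.

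ISG20 had the largest indacaterol change of the 37 genes at each of the 4 times. At 2 h its vehicle libraries were at 6.35, 4.09, 5.36, 4.69 and 11.8, and those with indacaterol alone at 26.9, 33.9, 19.4, 19.7 and 33.5. Over all backgrounds ISG20 ran from 12.1 to 33.9 with indacaterol and from 4.09 to 11.8 without, and at 6 h from 11.4 to 38.6 and from 3.42 to 10.4. The ranges overlapped at neither time, and it was higher in 20 of 20 pairs at both. The log2 change was 0.53 ± 0.13 at 1 h (adjusted p = 0.0018), 1.56 ± 0.12 at 2 h (3.54e-22), 1.69 ± 0.12 at 6 h (4.74e-24), or 3.22-fold, and 0.64 ± 0.14 at 18 h (0.00139). The 1 h change was 0.45 without replicate 2 (adjusted p = 0.0675) and 0.45 without replicate 4 (0.16).

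With both agents, the ISG20 values at 2 h lay above those of vehicle and, except for 20.9, below those of indacaterol alone. With mometasone alone they lay within the vehicle range. Indacaterol with mometasone gave 13.8, 12.1, 13.04, 14.3 and 20.9, and mometasone alone 4.54, 6.39, 6.12, 6.72 and 7.35. The log2 change with indacaterol was 1.93 in otherwise untreated cells, 1.98 beside carbachol, 1.12 beside mometasone and 1.22 beside both. The mometasone by indacaterol interaction, the difference of the joint log2 change from the sum of the single ones, was −0.79 ± 0.24 (adjusted p = 0.108). It was called with the replicate block (adjusted p = 0.00154).

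The IFIT genes fell with indacaterol at 2 h, all 4 of them. IFIT3 was at 6.80, 6.45, 7.65, 7.20 and 5.44 in vehicle and at 2.42, 4.48, 4.48, 4.80 and 3.23 with indacaterol alone, groups that did not overlap. Over all backgrounds IFIT3 ran from 2.12 to 4.80 with indacaterol and from 2.75 to 8.36 without, lower in 20 of 20 pairs. Indacaterol changed IFIT3 by −0.29 ± 0.077 log2 at 1 h (adjusted p = 0.00877), −0.64 ± 0.074 at 2 h (1.28e-12) and −0.24 ± 0.074 at 6 h (0.0169). IFIT2, IFIT1 and IFIT5 fell by 0.32, 0.27 and 0.25 at 2 h (adjusted p = 5.27e-05, 0.00968 and 0.0121), and IFIT2 by 0.24 at 6 h (0.00459). IFIT1 was higher by 0.36 at 18 h (adjusted p = 0.0136), in 13 of 14 pairs.

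Of these calls, those of IFIT3 and IFIT2 at 2 h held on leaving out each replicate. Without replicate 2 the adjusted p was 0.13 for IFIT3 at 1 h, 0.0647 for IFIT3 at 6 h, 0.0528 and 0.2 for IFIT1 at 2 and 18 h and 0.101 for IFIT5 at 2 h. Without replicate 4 it was 0.146 and 0.232 for IFIT3 at 1 and 6 h, 0.0676 for IFIT2 at 6 h, 0.105 and 0.28 for IFIT1 at 2 and 18 h and 0.0669 for IFIT5 at 2 h. Without the libraries over 20% mitochondrial, the IFIT5 change at 2 h was −0.199 (adjusted p = 0.0636).

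Among the other genes, PARP9 fell by 0.27 at 2 h (adjusted p = 0.000313), from a median of 7.28 to 5.83 and in 19 of 20 pairs, and its partner DTX3L fell by 0.27, with an adjusted p just under the threshold. SAMD9 fell by 0.30 at 2 h (adjusted p = 0.0435) and SAMD9L by 0.29 at 6 h (0.0145). CMPK2 rose by 0.34 at 2 h (adjusted p = 0.000385) and by 0.24 at 6 h (0.0213), and EPSTI1 by 0.33 at 6 h (0.0393). DTX3L missed the threshold without replicate 1, 2, 3 or 4 (adjusted p = 0.148, 0.228, 0.179 and 0.126) and SAMD9 without replicate 1, 2 or 4 (0.178, 0.163 and 0.15). At 6 h this was so for SAMD9L without replicate 1 or 5 (0.0819 and 0.0561), CMPK2 without 1, 4 or 5 (0.169, 0.0732 and 0.0722) and EPSTI1 without 2, 3 or 4 (0.413, 0.0637 and 0.0871). Without the libraries over 20% mitochondrial, the 2 h changes were −0.225 for DTX3L (adjusted p = 0.141) and −0.254 for SAMD9 (0.126).

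At 2 h IRF1 was the gene for which the agents together differed from the sum of their single changes. Vehicle libraries were at 23.9, 33.0, 37.1, 30.8 and 23.6 and those with mometasone alone at 14.1, 28.1, 28.2, 16.0 and 14.3. Indacaterol alone gave 23.5, 29, 32.3, 33.2 and 28.9, and mometasone with indacaterol 30.8, 40.7, 40.2, 36.0 and 30.5. The combination was thus above mometasone alone in every library, with means of 35.6 ± 4.88 and 20.2 ± 7.35 (SD, n = 5). Mometasone changed IRF1 by −0.58 in otherwise untreated cells (adjusted p = 0.0129) and by −0.75 beside carbachol (0.00028), but by 0.27 beside indacaterol (0.546) and 0.19 beside both (0.909).

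Indacaterol in turn changed IRF1 by 0.00 in otherwise untreated cells and 0.02 beside carbachol, and by 0.85 beside mometasone (adjusted p = 1.06e-05) and 0.96 beside both (4.97e-07). The interaction was 0.89 ± 0.15 (adjusted p = 1.39e-05), called for 2.7% of the 37 genes beside 1.17% of all genes. Leaving out each replicate gave 0.82 to 0.97. Averaged over backgrounds, the indacaterol change was 0.46 ± 0.076 (adjusted p = 5.66e-07) and the mometasone change −0.22, which was called only with the replicate block (adjusted p = 0.00087). At 6 h the IRF1 levels with mometasone were low with and without indacaterol, at means of 11.8 ± 1.87 and 12.4 ± 2.00.

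**Figure D5:**
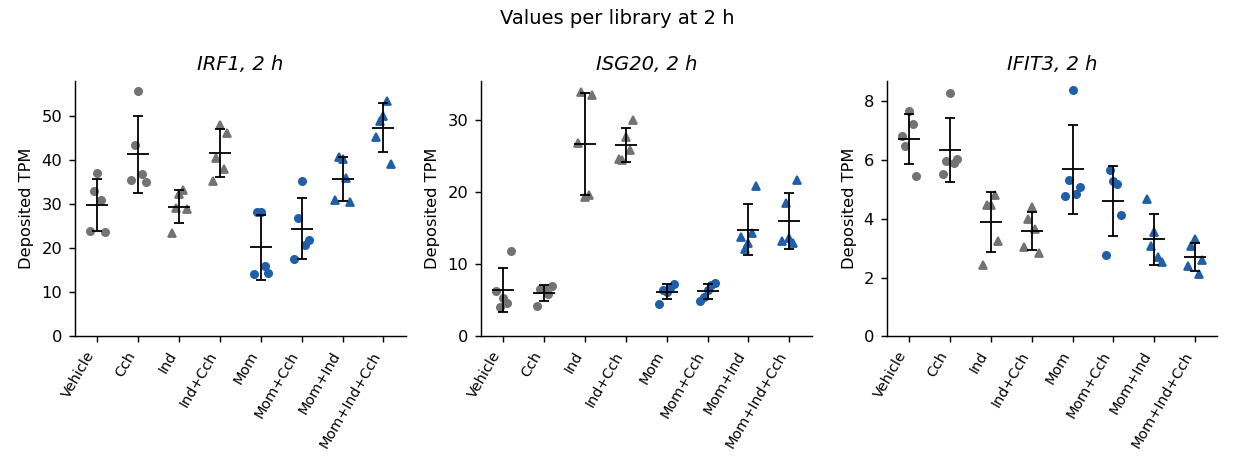
Deposited value (TPM) of IRF1, ISG20 and IFIT3 at 2 h in each library of the 8 treatments, with the mean and SD of each group, circles without and triangles with indacaterol, blue with mometasone. IRF1 has means of 29.7 in vehicle, 20.2 with mometasone and 35.6 with mometasone and indacaterol, and the indacaterol groups lie highest for ISG20 and lower than their counterparts for IFIT3.

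Elsewhere, at 1, 6 and 18 h, the interaction was called for none of the 37 genes, beside 0.614%, 0.735% and 0.121% of all genes, with 4, 4 and 1 at an unadjusted p under 0.05 in limma. With the replicate block 11 genes were called at 1 h and 5 at 2 h, 29.7% and 13.5% of the 37, where it called 35.6% and 11.4% of all genes. At 1 h these included IRF7 at 0.71 (adjusted p = 0.00146) and IRF1 at 0.46 (0.00135), and at 2 h ISG15 at −0.72 (0.00422) and PLSCR1 at 0.49 (0.00338).

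Carbachol called IRF1 at 2 h and none of the other genes at any time. The share of all genes called was 0.189%, 0.121%, 0% and 0% at 1, 2, 6 and 18 h, and 1, 5, 2 and 1 of the 37 genes had an unadjusted p under 0.05 in limma. IRF1 at 2 h was at 35.4, 43.4, 55.7, 36.8 and 34.9 with carbachol alone, a mean of 41.2 ± 8.76 beside 29.7 ± 5.87 in vehicle (SD, n = 5). Over backgrounds the log2 change was 0.41 ± 0.076 (adjusted p = 0.000706). Without replicate 5 it was 0.38 (adjusted p = 0.0687), and with the 2 h libraries fitted alone the adjusted p was 0.0559.

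The interferons themselves were near the floor of the table. Of 9 ligand genes, 8 did not pass the filter, and none of these 8 was above 0.79 in any library. IFNB1, the first interferon made by an infected epithelial cell, was listed at 0 in 143 of 150 libraries, IFNL1 in 148 and IFNL3 in 150. IFNE, a type I interferon of epithelia, was the exception at 1.502 ± 0.433 (SD, n = 19 vehicle libraries) and rose by 0.38 with mometasone at 6 h (adjusted p = 0.0163). The receptor chains IFNAR1, IFNAR2, IFNGR1 and IFNGR2 had vehicle means of 42.0, 19.7, 29.7 and 50.7. IFNAR2 fell with mometasone by 0.32 at 6 h (adjusted p = 1.07e-09) and IFNGR2 by 0.59 at 18 h (3.32e-19), and IFNGR1 rose with indacaterol by 0.48 at 2 h (6.56e-13).

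Among 18 expressed genes of JAK-STAT signalling and its inhibitors, mometasone called 6 higher and 3 lower at 6 h, 50% beside the 33% of all genes (18.4% higher and 14.6% lower). SOCS3, a feedback inhibitor, was lower at all 4 times, by 1.21, 1.44, 1.06 and 1.00, and JAK2, a kinase of the interferon gamma receptor, was higher by 0.97 and 1.31 at 6 and 18 h (adjusted p = 1.02e-05 and 2.13e-07). Indacaterol raised SOCS3 by 1.56 at 2 h (adjusted p = 1.07e-32). Of 23 expressed genes of nucleic acid sensing, mometasone called 4 higher and 7 lower at 6 h, 47.8% beside the same 33%. CGAS, the sensor of cytosolic DNA, fell by 0.41 (adjusted p = 5.83e-16), TRAF3, an adaptor downstream of the sensors, by 0.60 (3.02e-13), and DHX58, a helicase of the RIG-I family, rose by 0.72 (1.89e-11). STING1 fell by 0.50 with indacaterol at 6 h (adjusted p = 3.27e-07). At 1, 2 and 18 h mometasone called 16.7%, 22.2% and 27.8% of the JAK-STAT list and 4.35%, 17.4% and 34.8% of the sensing list. Of all genes it called 2.64%, 8.58% and 31.5% at these times.

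In a wider list of 56 other expressed interferon-stimulated genes, mometasone called 5 higher and 15 lower at 6 h, with a median of −0.11 log2, and 6 higher and 23 lower at 18 h, with a median of −0.13. These were 35.7% and 51.8% of the list, beside 33% and 31.5% of all genes. The nuclear body protein SP110 rose by 1.91 at 6 h (adjusted p = 2.77e-58), and CASP1, the inflammasome protease, by 1.32 at 18 h (1.36e-20). GBP3, a guanylate-binding protein, fell by 1.31 at 6 h (adjusted p = 1.31e-21) and APOL1 by 1.07 at 18 h (9.82e-26). Indacaterol raised CD274, the immune checkpoint ligand PD-L1, by 1.34 at 2 h (adjusted p = 6.21e-14) and lowered APOL2 by 0.44 (9.57e-10).

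Within groups, the 37 genes did not vary as a single unit. After group means were removed, the median Pearson correlation over the 666 gene pairs across 150 libraries was 0.21, with 102 pairs above 0.5 and 35 below −0.5. The libraries share replicate numbers, so no p is given. Pairs of other genes were not counted, so these numbers cannot be read as particular to the 37 genes. IFI6 and ISG15 correlated at 0.93, BST2 and IFI6 at 0.94 and DTX3L and OAS3 at 0.91, while DTX3L and IFI35 were at −0.82. With the mean of each replicate number within a time also removed, 40 pairs were above 0.5 and 2 below −0.5, and IFI6 with ISG15 was at 0.82 and DTX3L with SAMD9 at 0.76.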

How the data were processed

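RNA-seq libraries of BEAS-2B cells were analysed from a table that covers the whole series. The deposited values are called TPM by the authors, per the file name; since their sums differ between libraries, they were treated as a deposited signal, with read depth unknown. Per the submitters' processing notes, the authors used bcl2fastq 2.17.1.14, STAR 2.4.2a and GRCh38; for the quantification tool, the annotation and strand handling, the sources used here name nothing. The sequences and the spans of genes came from RefSeq and the reference annotation on GRCh38. Columns were matched to samples by their labels, which gave 150 libraries of 160 labelled samples, and 10 further columns of values were not used.

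The 14827 genes that reached a value of 1 or more in 5 or more libraries were fitted with limma 3.58.1 (R 4.3.3, with the data.table package, version 1.17.8) on log2(value + 1), with 1 coefficient for each of 32 groups, a mean-dependent prior variance and 118 residual degrees of freedom. The mometasone, indacaterol and carbachol effects are means over the 4 backgrounds, the interaction is the mean over carbachol states, and vehicle was compared with its 1 h level. These comparisons share libraries. P-values were adjusted by Benjamini-Hochberg over all genes within a comparison and time and called below 0.05. A log2 change on this scale understates the change of low genes. Errors after log2 changes are SE.

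Libraries with the same replicate number deviated together between treatments. Correlations of their deviations from group means were 0.407 to 0.92 for mometasone, 0.132 to 0.943 for indacaterol and 0.132 to 0.936 for carbachol. The numbers were therefore used in the counts of pairs and in the fits with a replicate block. The main fit had no term for the number, and it gave all calls, SEs and adjusted p not marked otherwise. Across times in vehicle the lowest correlation was −0.203, and the numbers were not taken as pairs there. Fits with the number as a block within each time had 102 residual degrees of freedom.

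Genes were named by rule: up to 12 of the 37 per agent by smallest adjusted p for mometasone and indacaterol, the 4 highest and 4 lowest in vehicle and those at the filter's edge, and for other lists at most 6 called genes. Further genes of the 37 were named as called or not called in order to account for all of them. The genes and the lists were chosen with earlier results of these data known. The fit was tested on simulated data. Alternatives were other scalings, pseudocount and filter, leaving out each replicate or the 6 libraries with over 20% mitochondrial values, each time fitted alone, and the replicate block. A gene of the signalling list is not reported here.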

Additional observations from a re-analysis of the deposited data

Results flagged for a closer look

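Among the named genes, 96 vehicle groups of 4 or 5 libraries were searched for a single library far from the others, and 12 held one. Chance gives about 1 in 20 where groups are independent, and these are not, since the genes were read in the same 19 libraries. In these groups the gap between the highest library and the next took up most of the range. Of the 12, 6 were replicate 5 libraries. IFI6 was at 172.16 in replicate 5 at 1 h, where the next library was at 92.25, at 172.05 beside 91.65 at 6 h and at 142.37 beside 75.84 at 18 h. IFI35 was at 74.97 beside 55.18 at 6 h and at 86.67 beside 41.82 at 18 h, and ISG15 at 81.62 beside 39.94 at 18 h. The other 6 were low genes in replicates 1 and 4. OAS2 was at 1.25 in replicate 4 at 2 h beside 0.57, at 1.62 in replicate 1 at 6 h beside 0.89 and at 2.31 in replicate 4 at 18 h beside 0.48. OAS1 was at 7.04 in replicate 4 at 18 h beside 3.38. IFIT2 was at 2.46 in replicate 1 at 1 h beside 2.02, and XAF1 at 1.74 in replicate 1 at 2 h beside 0.75.

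The IRF1 interaction at 2 h is listed because the mometasone effect differed with and without indacaterol. It was 0.894 on the log2 scale (adjusted p = 1.39e-05 in limma).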

How the results depend on the processing

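The 66 calls of the report were recomputed under 12 alternatives, 792 values in all. Of these 693 kept the direction and the call, 99 kept the direction and missed the threshold, and none changed direction. Counts of called genes moved by over 1.5 times in these cases. With each time fitted alone, carbachol at 2 h went from 1 to 0, indacaterol at 1 h from 2 to 0 and the interaction at 2 h from 1 to 2. With each library scaled to the same sum, carbachol at 2 h and mometasone at 1 h went from 1 to 0 and indacaterol at 6 h from 6 to 3. With the replicate block, the pairing gave 4 for mometasone and 4 for indacaterol at 1 h, 11 for mometasone at 2 h, 12 for indacaterol at 6 h, and 11 and 5 for the interaction at 1 and 2 h; it lost no call. A replicate block across times, added after seeing the data, gave 1 and 3 calls for vehicle at 6 and 18 h. Samples with the same number were not paired across times, so these counts show only how the block moves the test.

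Leaving out 1 replicate at a time gave 0 to 1 genes for mometasone at 1 h, 9 to 16 for mometasone at 18 h, 0 to 2, 6 to 10, 2 to 5 and 1 to 2 for indacaterol at 1, 2, 6 and 18 h, 0 to 1 for carbachol at 2 h and 1 to 3 for the interaction at 2 h. The share of all genes called moved too. For indacaterol at 1 h it was 2.7% without replicate 2 and 5.19% without replicate 5, beside 4.51% in the main fit. Scaling to the same sum moved the median of all genes by −0.18 for the interaction at 1 h, 0.16 at 2 h and 0.11 for vehicle at 6 h. Under it the balance of higher and lower calls over all genes also moved for indacaterol and for mometasone at 6 h, as given in the report, and 45.5% of all interaction calls at 1 h were higher in place of 73.6%, 80.8% at 2 h in place of 59%, and 68.4% at 18 h in place of 83.3%. The IRF1 interaction at 2 h was 1.078 under it, beside the shift of 0.16. Depth is unknown, so the precision of values below 1, where OAS2, RSAD2, XAF1 and IFI44L lie, cannot be given.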
